A study of Mus musculus with 24 samples.

Results

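The comparison described here is CL316243 against vehicle in the livers of male mice whose hepatocytes express PPARα (labelled LWT), with 6 mice given CL316243 and 6 given vehicle, 12 of the 24 mice of the study. Members were chosen by the genotype and treatment in the sample labels, and all genes that passed a signal filter were tested. The mice were C57Bl/6J, had a standard diet at all times and lived on a cycle of equal light and dark. CL316243 was given by gavage at 3 mg/kg of body weight in 0.5% carboxymethyl cellulose, 10 h after lights on (Zeitgeber time 10), and every liver was collected at Zeitgeber time 16, in the dark phase. Vehicle mice are labelled Vehicle and treated mice Beta3, which names the receptor. The other 12 mice, labelled LKO, lack hepatocyte PPARα by the series title, received the same 2 treatments on the same schedule (6 mice each) and enter only where the effects in the genotypes are compared. The labels do not say how PPARα was deleted, which promoter drove the deletion, whether LWT and LKO mice were littermates, or how old the mice were.

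CL316243 is an agonist of the β3-adrenergic receptor, which in mice is found mainly on white and brown adipocytes. Its activation raises cyclic AMP in fat cells, starts lipolysis and heat production, and sends free fatty acids, glycerol and adipose-derived signals to the liver through the blood. In hepatocytes, fatty acids that arrive can be bound by PPARα, a nuclear receptor that switches on genes of fatty acid transport, oxidation and ketone body production, and the liver also answers cytokines such as IL-6 with the acute phase response.

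Each mouse gave 1 array, and the mice are separate animals by the labels. Positions given as mm9 are those of the array probe in the files. Gene levels are given as log2 signal scaled to the 75th percentile of its own array, so that a value of 0 lies at that percentile, and differences are log2 CL316243 minus vehicle with the standard error (SE) of a linear model over the 24 arrays. A gene is called changed when its limma p-value, adjusted by the Benjamini-Hochberg method over all 21311 genes tested, is under 0.05. Probes well above background numbered 30018 to 32977 (of 56605) on the vehicle arrays and 26985 to 33772 on the CL316243 arrays. The lowest correlation between 2 arrays of the same group was 0.988 for vehicle and 0.977 for CL316243 across genes. Ppara itself had a relative log2 signal of 6.02, 6.23 and 6.48 (lowest, median and highest of 6) in vehicle mice and 6.25, 6.92 and 6.98 in CL316243 mice, a change of 0.55 ± 0.20 (adjusted p 0.0367) that was not called when any of vehicle replicates 2, 3, 4 and 5 or CL316243 replicates 1, 2, 4, 5 and 6 was left out (adjusted p up to 0.0721). In LKO mice Ppara lay at 5.37, 5.57 and 5.74 under vehicle and 3.61, 5.07 and 5.40 under CL316243, below every LWT mouse. The labels do not say whether its probes lie in the deleted part of the gene, so the level checks the genotype labels only in part. The effect of CL316243 on Ppara differed between the genotypes by -1.24 (LKO minus LWT, adjusted p 0.0117).

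The summed linear signal of 11 hepatocyte markers, scaled to that percentile, lay between 6130 and 6666 in vehicle mice and between 6037 and 8142 in treated mice. Kupffer cell and macrophage markers (15 genes) summed to 136 to 278 and 152 to 281, with 1 of them, Cd163, called higher. Of 11 neutrophil markers tested, 4 were called higher and 2 lower, with sums of 139 to 153 and 154 to 178. The lower ones were Camp and Ly6g. The neutrophil alarmins S100a8 (1.48, adjusted p 0.0458) and S100a9 (1.44, adjusted p 0.0403) were among the higher ones, and each lost its call without any of 9 single mice (vehicle replicates 1, 2, 4, 5 and 6 or CL316243 replicates 1, 2, 3 and 5 for both, adjusted p up to 0.114 and 0.0988). S100a8 also lost it with the slide, or the row of arrays on the slide, as a block (adjusted p 0.0556 and 0.0520). Leaving out 1 mouse put the count of neutrophil markers called higher between 1 and 6, and the count called lower between 1 and 2. Of 14 lymphocyte and NK cell markers, 3 were called lower (21.4%), among them the B cell genes Ms4a1 and Cd79b. Over all genes tested, 19.1% were called higher and 19.1% lower, so this count lies near the share of all genes. The sum of these markers went from 47.6 to 56.9 in vehicle mice to 35.3 to 53.2 in treated mice. Of 10 adipocyte markers tested, 3 were called higher, among them Fabp4 and Cidea, 1, Adrb3, lower, and 6 were not called (median -0.06). Their sum went from 10.5 to 14.4 in vehicle mice to 13.9 to 52.1 in treated mice. A linear sum gives bright genes the most weight, and Fabp4, also counted in a fatty acid list, had the largest change here (2.87). Adipoq, the defining adipocyte gene, did not pass the signal filter. Of the other marker lists, sinusoidal endothelial cells had 2 of 15 genes called higher and 1 lower, stellate cells 2 of 15 and 2, cholangiocytes 1 of 9 and none, erythroid cells none of 8 and 1, and hepatocytes 1 of 11 and none. Because these are whole livers, fewer cells of a type and less RNA per cell cannot be told apart.

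CL316243 changed 8146 of the 21311 genes (38.2%), of which 4070 were higher (19.1%) and 4076 lower (19.1%). The changes were mostly small, since 862 of the higher genes and 817 of the lower genes moved at least 2-fold. The median log2 change over all genes was 0.01, and the middle of the distribution, from the lower to the upper quartile, ran from -0.25 to 0.25 with a median SE of 0.13. The groups did not overlap for 4327 genes (20.3%), meaning that every mouse of one group lay beyond every mouse of the other. Genes of 45 pathway lists were then read against these shares, and the lists differed widely in their balance of higher and lower members. At the upper end of the order stood acyl-CoA thioesterases (median 1.14), immediate early genes (1.12) and acute phase proteins (0.70). At the lower end stood bile acid genes (-0.42), the tryptophan to NAD pathway (-0.38) and cell cycle genes (-0.37).

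**Figure D1:**
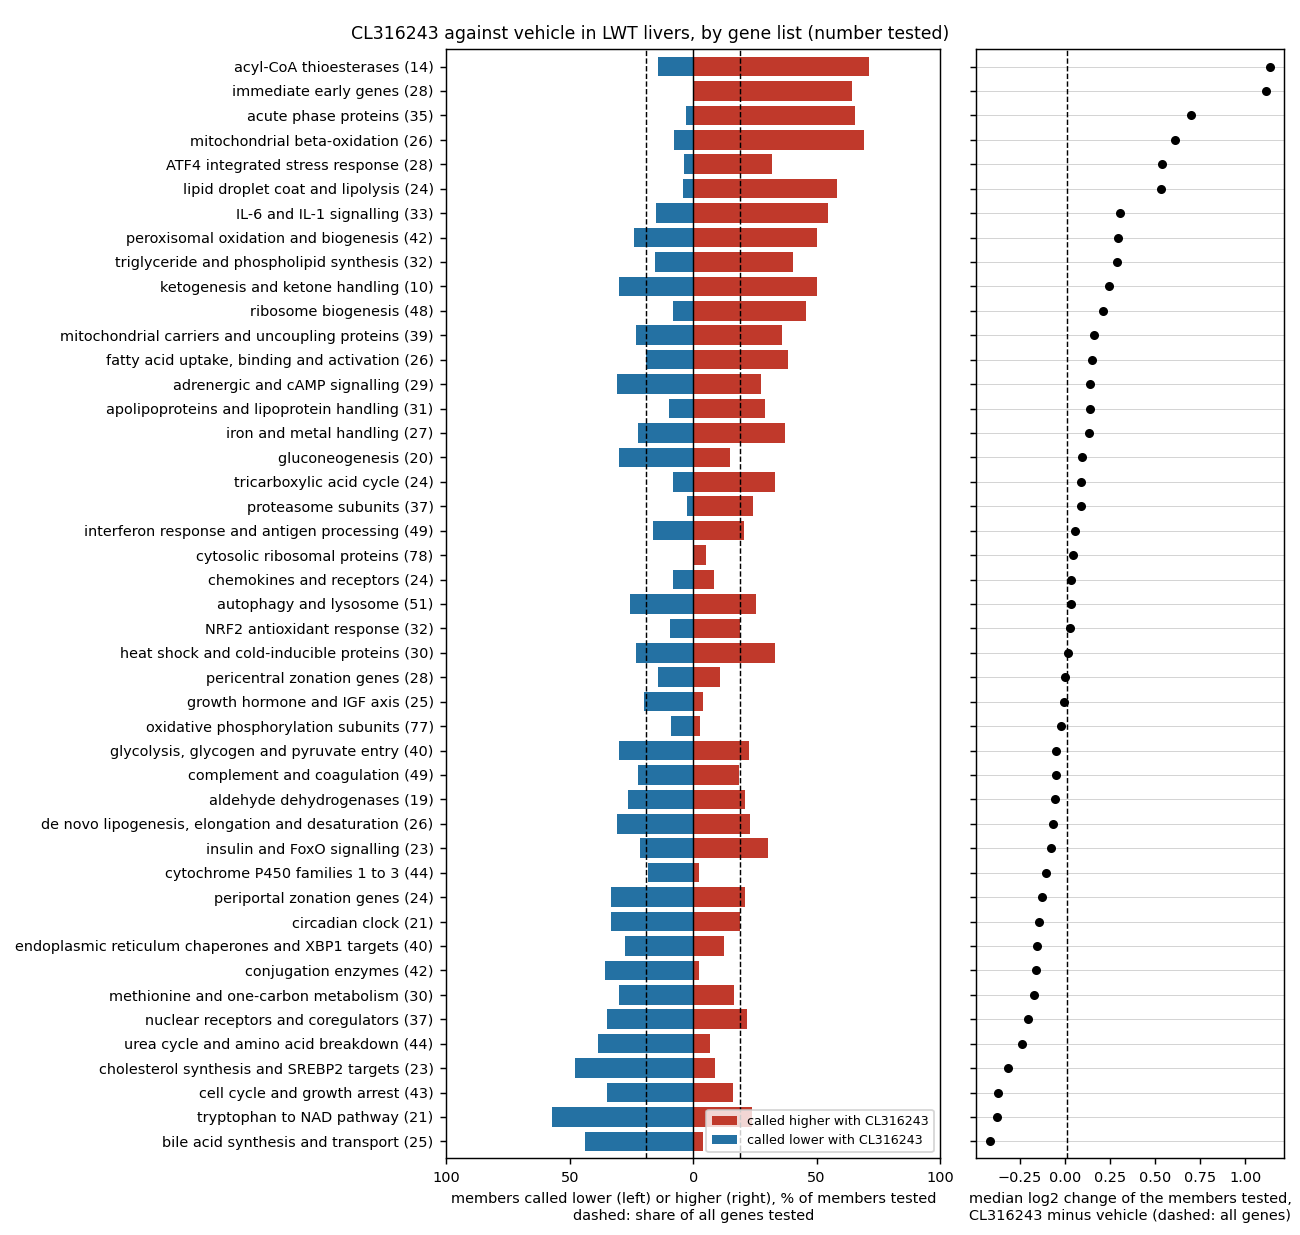
Share of each list's tested members called higher (red, right) or lower (blue, left) with CL316243 in LWT livers, in percent, beside the median log2 change of the members, with lists sorted by median and the number tested in brackets. Dashed lines mark the 19.1% of all genes called in each direction and the all-gene median of 0.01. Thioesterases, immediate early genes and acute phase proteins lie at the top, and bile acid, tryptophan and cell cycle genes at the bottom.

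Genes that bring fatty acids into hepatocytes and activate them moved in part. Of 26 members tested, 10 were called higher and 5 lower (median 0.15), and this median was 0.03 in the authors' deposited log2 values and 0.06 without CL316243 replicate 1. Cd36, a fatty acid translocase of the plasma membrane, lay at -1.08, -0.04 and 0.56 in vehicle mice and 0.58, 0.99 and 1.28 in treated mice, and rose by 1.102 ± 0.31 (adjusted p 0.00680). Its 6 treated mice all lay above the 6 vehicle mice, by a narrow margin. The long-chain acyl-CoA synthetase Acsl1 lay at 6.97, 7.68 and 8.19 and 7.85, 8.84 and 9.01, and rose by 1.05 ± 0.20 (adjusted p 2.54e-04) with overlapping groups. Fabp4, a lipid chaperone best known from adipocytes and macrophages, lay at 1.16, 1.33 and 1.95 under vehicle and 2.37, 4.50 and 5.55 under CL316243, a rise of 2.87 ± 0.35 (adjusted p 1.39e-06, mm9 chr3:10204452-10204511) without overlap. In the other direction, the medium-chain acyl-CoA synthetase Acsm5 changed by -0.95 (adjusted p 9.32e-05).

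Most genes of mitochondrial β-oxidation, which breaks fatty acids down to acetyl-CoA, rose. Of 26 members tested, 18 were called higher and 2 lower (median 0.61), against 19.1% of all genes in each direction. The entry steps are described first. Cpt1a, the carnitine palmitoyltransferase of liver mitochondria, lay at 5.05, 5.68 and 6.21 in vehicle mice and 6.62, 6.83 and 6.97 in treated mice (change 1.15 ± 0.15, adjusted p 3.63e-06). Cpt1b, the form known from muscle and brown fat, went from -3.83, -2.60 and -2.36 to -0.27, 0.43 and 0.69, a change of 3.13 ± 0.20 or 8.74-fold (adjusted p 1.12e-10, mm9 chr15:89246836-89246895). Neither gene's groups overlapped. The carnitine-acylcarnitine carrier Slc25a20 lay at 2.07, 2.20 and 2.52 and 3.45, 3.63 and 3.77 (1.39 ± 0.13, adjusted p 4.03e-08).

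Further enzymes of the β-oxidation list rose as well. The medium-chain dehydrogenase Acadm lay at 6.16, 6.36 and 6.58 under vehicle and at 6.64, 7.12 and 7.29 under CL316243, a rise of 0.71 ± 0.09 (adjusted p 2.49e-06). Eci2, an isomerase needed for unsaturated fatty acids, rose by 1.28 ± 0.10 (adjusted p 1.18e-09). Both genes' groups were separate, although the gap for Acadm was only between 6.58 and 6.64. The members called lower were the enoyl-CoA hydratase Echs1 (-0.29, adjusted p 0.0355) and Mcee, the epimerase of propionate breakdown (-0.38, adjusted p 2.32e-04). The call of Echs1 was lost without any of vehicle replicates 1, 4, 5 and 6 or CL316243 replicates 2 and 3 (adjusted p up to 0.105), and its change was -0.19 at its smallest.

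Peroxisomes, which shorten very long and branched chains, showed a split pattern. Of 42 members, 21 were called higher and 10 lower (median 0.29). Ehhadh, the bifunctional enzyme of the peroxisomal pathway, went from 3.71, 4.20 and 4.37 to 7.76, 8.28 and 8.39, a change of 3.98 ± 0.14 (adjusted p 4.05e-15, mm9 chr16:21761914-21761973) that lay far outside the spread of either group. The carnitine acyltransferases of this list, Crat (2.10, 2.67 and 3.56 to 5.07, 5.64 and 5.88) and Crot (4.39, 4.56 and 4.98 to 6.57, 6.79 and 7.44), rose by 2.81 ± 0.37 and 2.24 ± 0.19. Pex11a, which drives peroxisome division, rose by 2.14 (adjusted p 2.53e-09). Among the lower members, Slc25a17, the peroxisomal cofactor carrier, changed by -0.67 (adjusted p 2.26e-05).

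Acyl-CoA thioesterases, which release free fatty acids from CoA, had a median change of 1.14. Of 14 members, 10 were called higher and 2 lower. Acot2, the mitochondrial form, went from -1.54, -1.02 and 0.47 to 5.66, 6.04 and 6.42, a change of 6.98 ± 0.24 (adjusted p 4.05e-15, mm9 chr12:85334553-85334612). Acot1 in the cytosol (2.99, 4.02 and 5.17 to 8.26, 8.40 and 8.82) and Acot5 in peroxisomes (-2.20, -1.39 and -0.24 to 3.52, 3.60 and 4.39) rose by 4.53 ± 0.30 and 5.24 ± 0.30. All 6 treated mice were above all 6 vehicle mice for the 3 genes, whose sequences are near copies of each other, so their probes may share signal. Acot12 rose by 0.39 (adjusted p 0.00171), Acot7 was not called (-0.07, adjusted p 0.607), and Acot11, a form of brown fat that responds to cold, fell by 1.40 on the log2 scale (adjusted p 0.00195). The list's median was 0.86 in the authors' deposited log2 values and 0.74 with another background correction (normexp).

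Ketone body genes were mixed. Of 10 members, 5 were called higher and 3 lower (median 0.24). The exporters rose, as the monocarboxylate transporter Slc16a1 went from 2.57, 2.93 and 3.44 to 4.90, 5.08 and 5.46 (2.14 ± 0.21, adjusted p 5.14e-08) and Slc16a6, which lets β-hydroxybutyrate leave hepatocytes, from 1.97, 2.26 and 2.46 to 3.20, 3.75 and 4.39 (1.58 ± 0.24, adjusted p 2.21e-05). Both were separate between the groups. Bdh1, which makes β-hydroxybutyrate, was not called (-0.09, adjusted p 0.742), whereas Bdh2 fell by 0.83 on the log2 scale (adjusted p 1.17e-05).

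**Figure D2:**
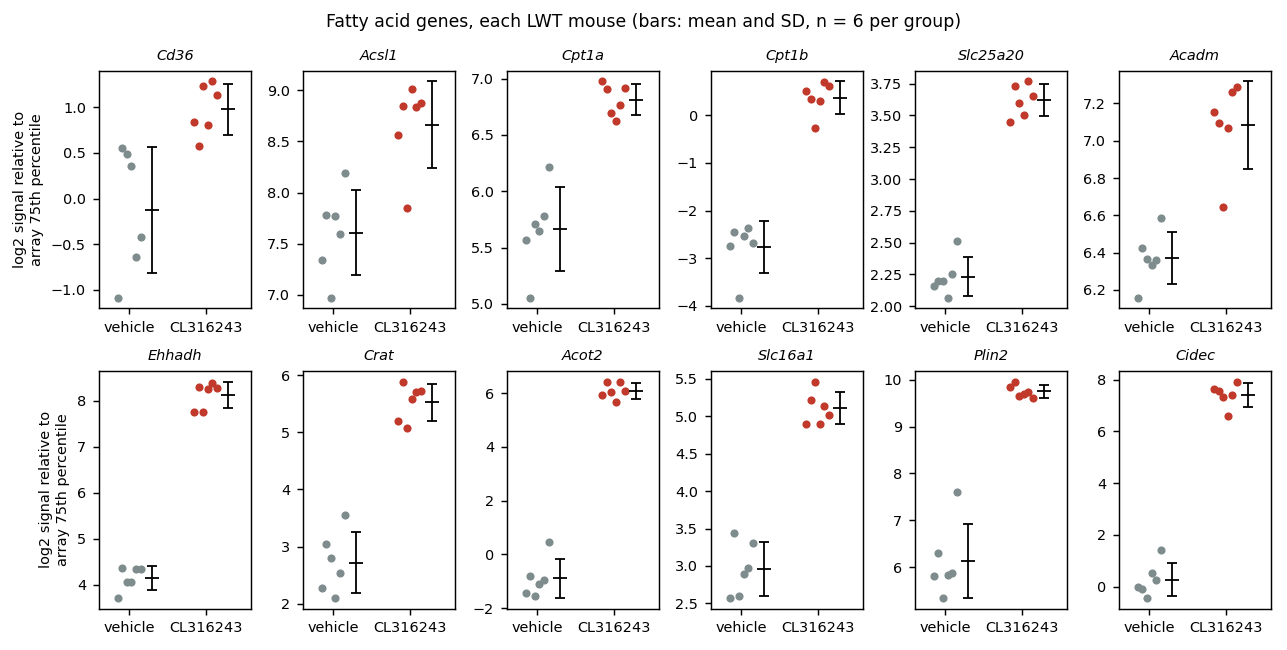
Log2 signal scaled to the 75th percentile of its own array of 12 fatty acid genes in each LWT mouse, grey for vehicle and red for CL316243, with the mean and SD of the 6 mice of each group. Treated mice lie above vehicle mice without overlap in every panel except Acsl1, and among the plotted genes Cidec (7.14) and Acot2 (6.98) differ most.

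Lipid droplet genes were mostly higher. Of 24 members of the droplet coat and lipolysis list, 14 were called higher and 1 lower (median 0.53). Plin2, the general coat protein, lay at 5.34, 5.86 and 7.61 under vehicle and 9.60, 9.72 and 9.96 under CL316243, a rise of 3.62 ± 0.23 (adjusted p 1.24e-10). Plin5, which couples droplets to mitochondria, rose by 2.13 ± 0.22 from 5.03, 5.46 and 6.01 to 7.37, 7.69 and 7.86, and Hilpda, an inhibitor of adipose triglyceride lipase, by 4.06 ± 0.34 from -0.37, 0.04 and 0.45 to 2.95, 4.24 and 5.07. G0s2, another inhibitor of that lipase, went from 2.07, 3.85 and 4.29 to 6.55, 6.79 and 6.91 (3.20 ± 0.55, adjusted p 8.95e-05). For each of these 4 genes every treated mouse lay above every vehicle mouse. The exception in the list was Pnpla3, a droplet protein induced by carbohydrate feeding, at -0.14, 2.01 and 3.50 and -1.91, -0.83 and 0.13, which fell by 2.82 on the log2 scale (SE 0.69, adjusted p 0.00240) with overlapping groups.

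Triglyceride and phospholipid synthesis had 13 of 32 members called higher and 5 lower (median 0.29). Gpat3, which adds the first acyl chain to glycerol phosphate, went from -0.55, 0.00 and 1.21 to 4.32, 4.73 and 5.18, a change of 4.67 ± 0.40 (adjusted p 9.90e-09). Gk, glycerol kinase, rose by 2.12 ± 0.14 (adjusted p 1.67e-10), and Mfsd2a, a carrier of lysophosphatidylcholine, by 2.53 ± 0.60 (adjusted p 0.00203). The phosphatidate phosphatases Lpin1 (0.02, adjusted p 0.978) and Lpin2 (0.63, adjusted p 0.135) and the acyltransferase Mogat1 (0.29, adjusted p 0.520) were not called. The count of lower members was 3 without CL316243 replicate 2 and 2 without CL316243 replicate 3.

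De novo lipogenesis, which builds fatty acids from acetyl-CoA under insulin, was lower at several control points. Of 26 members, 6 were called higher (23.1%) and 8 lower (30.8%, median -0.06), against 19.1% of all genes in each direction. Srebf1, the transcription factor of the pathway, lay at 6.73, 7.55 and 7.88 in vehicle mice and 4.74, 5.31 and 6.32 in treated mice, and fell by 1.96 on the log2 scale (SE 0.26, adjusted p 3.52e-06), with no overlap between the groups. Mid1ip1, an activator of acetyl-CoA carboxylase, went from 5.05, 5.80 and 6.57 to 2.14, 2.94 and 4.49 (change -2.57 ± 0.36, adjusted p 7.82e-06). Thrsp, its paralog, fell by 1.35 (adjusted p 5.41e-05) and Fasn, the fatty acid synthase, by 1.21 on the log2 scale (adjusted p 0.0133). Fasn levels were 8.59, 9.26 and 9.72 and 6.97, 8.25 and 8.67 and overlapped. Scd1 was not called (0.23, adjusted p 0.231). The elongases Elovl5 (1.41, adjusted p 8.26e-08) and Elovl3 (1.74, adjusted p 5.15e-04) rose.

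Genes of cholesterol synthesis and other targets of SREBP2 fell more often than they rose, with 2 of 23 members called higher and 11 lower (median -0.31). Insig2 and Insig1, which hold SREBP in the endoplasmic reticulum and are counted in the lipogenesis list instead, moved in opposite directions. Insig2 lay at 3.89, 4.55 and 5.20 and 7.07, 7.74 and 7.83 (2.99 ± 0.24, adjusted p 4.14e-09) and Insig1, itself a SREBP target, at 1.73, 2.52 and 3.52 and 0.25, 0.70 and 1.24 (-1.79 ± 0.30, adjusted p 6.69e-05), both without overlap. The mevalonate pathway enzymes Mvd (-2.25 ± 0.45) and Mvk (-1.41 ± 0.19) and the sterol carrier Stard4 (-1.69 ± 0.17) fell.

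When the mean over probes was used, the median of the cholesterol list was -0.60. Sqle, squalene epoxidase, fell by 0.60 on the log2 scale (adjusted p 0.0324), a call that was lost without any of vehicle replicates 1, 2, 3 and 5 or CL316243 replicates 2, 4 and 5 (adjusted p up to 0.0970). Hsd17b7, which also acts late in the pathway, rose by 1.44 ± 0.14 (adjusted p 9.19e-08), and Srebf2 rose by 0.32 (adjusted p 6.20e-04).

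Genes of bile acid synthesis and transport were more often lower, with 11 of 25 members called lower and 1 higher (median -0.42). Abcg8, a subunit of the canalicular sterol exporter, lay at 3.005, 3.71 and 4.12 in vehicle mice and 1.52, 2.42 and 3.33 in treated mice and fell by 1.32 on the log2 scale (SE 0.25, adjusted p 2.14e-04). Klb, the co-receptor through which FGF15 and FGF21 act, went from 1.17, 1.31 and 1.42 to -0.62, -0.08 and 0.65 (-1.28 ± 0.22, adjusted p 9.95e-05) with every treated mouse below every vehicle mouse. Abcb11, the bile salt export pump, fell by 0.47 on the log2 scale (adjusted p 0.00340). The member called higher was Abcb4, the phosphatidylcholine exporter of bile, which went from 5.62, 5.79 and 6.22 to 6.58, 6.98 and 7.37 (1.13 ± 0.16, adjusted p 1.16e-05).

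The uptake carrier Slc10a1 (0.14, adjusted p 0.144) and the synthetic enzymes Cyp8b1 (-0.78, adjusted p 0.0805) and Cyp7b1 (-0.50, adjusted p 0.0685) were not called. As the mean over its probes, Slc10a1 was called lower (-0.27, adjusted p 0.00871). Cyp8b1 was called lower without vehicle replicates 1 and 3 or CL316243 replicate 3, and Cyp7b1 without vehicle replicate 3 or CL316243 replicates 3 and 4 (adjusted p down to 0.0194 and 0.0280). Nr0b2, the repressor SHP, fell by 1.35 on the log2 scale (adjusted p 0.0476) and lost its call without any of 11 single mice, all but CL316243 replicate 1 (adjusted p up to 0.0976), and also with the slide as a block (0.0525), after quantile normalization (0.0505) and with scaling to the array's median (0.0512). The list's median was -0.27 without CL316243 replicate 3 and -0.52 without CL316243 replicate 4, and 4 members were called higher without vehicle replicate 3.

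Among 31 apolipoproteins and lipoprotein genes, 9 were called higher and 3 lower (median 0.14, and 0.01 in the authors' deposited log2 values). Apoa4, an apolipoprotein that rises with triglyceride export, went from 4.74, 4.97 and 5.41 to 7.61, 8.46 and 8.97, a change of 3.39 ± 0.26 or 10.5-fold (adjusted p 2.04e-09, mm9 chr9:46051206-46051266). Angptl8, an insulin-induced inhibitor of lipoprotein lipase, moved oppositely from 5.48, 6.95 and 7.48 to 2.49, 4.40 and 5.55 (-2.57 ± 0.59, adjusted p 0.00145), with overlapping groups. Vldlr was not called (-0.14, adjusted p 0.782).

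Of 20 gluconeogenesis genes, 3 were called higher (15%) and 6 lower (30%), with a median of 0.10 and a mean of -0.01. Among all genes, 19.1% were called in each direction. Pck1, the cytosolic carboxykinase, lay at 6.02, 7.36 and 8.70 and 7.11, 7.43 and 8.45 and was not called (0.34 ± 0.42, adjusted p 0.569). The same held for G6pc, the catalytic subunit of glucose-6-phosphatase, at 4.66, 5.59 and 6.50 and 4.58, 5.81 and 6.45 (0.12 ± 0.50, adjusted p 0.872). For Pck1 the treated mice lay within the vehicle range, and for G6pc the ranges nearly coincided. Slc37a4, the carrier that feeds glucose-6-phosphate to that enzyme, fell by 1.11 on the log2 scale (adjusted p 3.30e-05), and the coactivator Ppargc1a by 1.47 (adjusted p 0.00542). Pcx, pyruvate carboxylase, rose by 0.45 (adjusted p 1.55e-04).

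Glycolysis, glycogen and pyruvate entry held large changes in both directions, with 9 of 40 members called higher and 12 lower (median -0.05, with 5 higher and a median of -0.12 in the authors' deposited log2 values). Pdk4, which shuts pyruvate dehydrogenase, went from -0.49, 0.03 and 1.01 to 5.79, 7.04 and 7.65 (6.78 ± 0.44), while Pdk2, the constitutive form in liver, went from 2.86, 3.13 and 3.41 to 0.77, 1.16 and 1.94 (-1.85 ± 0.16, adjusted p 1.47e-08). The 2 kinases thus moved in opposite directions without overlap in either. The glycogen-targeting subunits of protein phosphatase 1 split in the same way. Ppp1r3c lay at 2.23, 2.70 and 3.24 and -3.22, -0.65 and 0.86 (-3.58 ± 0.60, adjusted p 6.66e-05), and Ppp1r3g at -4.59, -2.46 and -1.09 and 0.82, 1.17 and 3.11 (4.08 ± 0.69, adjusted p 8.09e-05). Pklr was not called (-0.61, adjusted p 0.116).

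In the insulin and FoxO list, 7 of 23 members were called higher and 5 lower (8 lower in the authors' deposited log2 values). Irs2, an insulin receptor substrate that FoxO factors and cyclic AMP induce, lay at 0.12, 0.76 and 2.02 and 2.15, 4.31 and 4.74, a rise of 2.88 ± 0.53 (adjusted p 1.72e-04) without overlap. Igfbp1, a secreted protein that insulin represses, went from 2.15, 4.61 and 6.15 to 6.03, 7.75 and 9.50 (3.64 ± 0.67, adjusted p 1.78e-04), with a narrow overlap between 6.03 and 6.15. Foxo3 fell by 1.38 on the log2 scale (adjusted p 2.79e-08), and Sesn3, a FoxO target, by 1.03 (adjusted p 3.05e-04). The list's median was -0.08 and its mean 0.18, and the median was 0.04 without vehicle replicate 6, 0.00 without CL316243 replicate 3, and -0.01 without vehicle replicate 1 or 4 and -0.02 without CL316243 replicate 1 or 2. Of 25 genes of the growth hormone and IGF axis, 1 was called higher (4%) and 5 lower (20%), against 19.1% of all genes in each direction. With the mean over probes, 3 of these genes were called higher and 8 lower. None was called higher with the slide as a block, with no filter on dim probes, or without vehicle replicate 2, 4 or 5 or CL316243 replicate 1, 2, 3, 5 or 6, and 2 were without CL316243 replicate 4. Igfals, the acid-labile subunit that growth hormone induces, fell by 1.68 on the log2 scale (adjusted p 5.42e-08) with separate groups, as did Bcl6 with overlapping ones (-1.54, adjusted p 0.00646), whereas Igf1 (0.09, adjusted p 0.614) and Socs2 (0.39, adjusted p 0.684) were not called.

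In the circadian list, 4 of 21 genes were called higher (19%) and 7 lower (33.3%, median -0.14). With 19.1% of all genes called in each direction, the count of higher members matches the share of all genes. Dbp, the D-box factor whose peak falls at the end of the light phase, went from 4.21, 4.999 and 5.996 to 2.06, 2.73 and 3.98 (-2.16 ± 0.37, adjusted p 8.04e-05), and the deubiquitinase Usp2 from 2.81, 3.72 and 3.96 to 0.12, 1.89 and 2.48 (-2.03 ± 0.36, adjusted p 1.32e-04). In both, every treated mouse lay below every vehicle mouse. Per2 (-0.99, adjusted p 0.00284) and Per3 (-1.49, adjusted p 0.00115) fell, while Per1 (0.25, adjusted p 0.452) and Nr1d1 (0.74, adjusted p 0.167) were not called. In the other direction, the D-box repressor Nfil3 (1.13 ± 0.38, adjusted p 0.0209) and the clock activators Arntl (0.81 ± 0.29, adjusted p 0.0307) and Clock (0.38 ± 0.14, adjusted p 0.0348) rose. Nfil3 lost its call without vehicle replicates 1 and 4 or CL316243 replicates 1 and 3 (adjusted p up to 0.0555), Arntl without vehicle replicates 1, 3 and 4 or CL316243 replicates 1, 2 and 5 (up to 0.0929) and Clock without vehicle replicates 1, 3, 4 and 6 or CL316243 replicates 5 and 6 (up to 0.0745). Arntl was also not called as the mean over its probes (0.40, adjusted p 0.284), nor Clock in the authors' deposited log2 values (adjusted p 0.0505). The list's median was -0.03 without vehicle replicate 3, -0.06 without CL316243 replicate 3 and -0.23 without vehicle replicate 2. The count of higher clock genes was 1 without vehicle replicate 1 or 4 and 2 without CL316243 replicate 1 or 5. All livers were taken at 1 time, so a change of level and a change of phase cannot be told apart.

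Among adrenergic and cyclic AMP genes, 8 of 29 were called higher and 9 lower (median 0.14, and 0.04 without CL316243 replicate 3), with 4 higher and a median of 0.00 in the authors' deposited log2 values. Adrb3, the receptor that CL316243 activates, lay at 0.91, 1.48 and 1.87 in vehicle mice and -1.82, -0.84 and 0.95 in treated mice, and fell by 2.10 on the log2 scale (SE 0.31, adjusted p 1.58e-05, mm9 chr8:28336268-28336327). The ranges met only at 0.91 and 0.95, and both kept probes of the gene fell. Adrb1 was not called (0.14, adjusted p 0.621). Crem, whose inducible product ICER represses cyclic AMP targets, went from 0.64, 0.93 and 1.42 to 1.90, 2.88 and 3.31 (1.72 ± 0.26, adjusted p 2.46e-05) without overlap. The α1-receptor Adra1b (-0.999, adjusted p 1.19e-04) and the adenylate cyclase Adcy9 (-0.97, adjusted p 1.43e-04) fell.

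Immediate early genes, which respond quickly to signals that reach a cell, were called higher in 18 of 28 members and lower in none (median 1.12). Egr1, a zinc finger factor, lay at 0.10, 0.92 and 1.57 and 1.98, 2.89 and 4.80 (2.30 ± 0.56, adjusted p 0.00254). The growth arrest genes Gadd45b (-1.77, -1.18 and -0.35 to 0.40, 2.83 and 3.06, change 3.41 ± 0.39) and Gadd45g (1.89, 3.02 and 5.65 to 5.86, 7.74 and 8.34, change 4.06 ± 0.64) rose, as did Klf10 (2.57 ± 0.21) and Myc (1.997 ± 0.41). The groups were separate in all 5. Fos (1.48 ± 0.54, adjusted p 0.0340) and Atf3 (1.73 ± 0.57, adjusted p 0.0202) rose with overlapping groups. Fos lost its call without any of vehicle replicates 1, 4 and 6 or CL316243 replicates 1, 3 and 5 (adjusted p up to 0.101), and Atf3 without CL316243 replicate 1 (adjusted p 0.0513). The count of higher members was 12 without CL316243 replicate 1 and 14 without CL316243 replicate 3, with none lower in either.

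Promoters of these genes were read in RefSeq sequence (build GRCm38.p6, 250 bases before to 50 after each annotated start) for the letters TGACG on either strand, the core of the cyclic AMP response element, which also lies within its full form TGACGTCA. The core was present in 15 of 28 promoters of the immediate early list (53.6%), against 20.8% of all 32851 promoters of that length. A match describes letters in the window, not a bound site or a cause. The stretches below, shown because their genes move together here, carry the matches in capitals and end before the annotated start.
Fos (GRCm38.p6, chr12:85473731-85473858, plus strand): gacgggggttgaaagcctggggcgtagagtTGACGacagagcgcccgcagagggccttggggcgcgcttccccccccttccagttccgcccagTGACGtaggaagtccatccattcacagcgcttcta
Nr4a1 (GRCm38.p6, chr15:101266596-101266840, plus strand): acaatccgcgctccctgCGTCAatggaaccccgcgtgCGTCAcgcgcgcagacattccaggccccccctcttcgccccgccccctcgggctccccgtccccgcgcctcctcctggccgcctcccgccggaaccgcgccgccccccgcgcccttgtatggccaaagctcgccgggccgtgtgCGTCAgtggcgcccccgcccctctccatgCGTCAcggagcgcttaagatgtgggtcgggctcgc
Btg2 (GRCm38.p6, chr1:134079284-134079351, minus strand): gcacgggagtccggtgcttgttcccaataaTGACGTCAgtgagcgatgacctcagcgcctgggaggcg
Dusp1 (GRCm38.p6, chr17:26508578-26508693, minus strand): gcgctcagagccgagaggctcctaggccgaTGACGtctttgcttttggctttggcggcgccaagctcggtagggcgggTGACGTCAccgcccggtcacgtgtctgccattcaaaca
These 4 genes, of which the last 3 were chosen after their values were seen, were called higher: Fos as given above, the orphan receptor Nr4a1 by 0.99 (adjusted p 0.0230), the antiproliferative gene Btg2 by 1.84 (adjusted p 0.0251) and the phosphatase gene Dusp1 by 0.78 (adjusted p 0.0363). The call was lost without CL316243 replicate 1 for Nr4a1 (adjusted p 0.0699), without vehicle replicates 1 and 6 or CL316243 replicates 1 and 3 for Btg2 (up to 0.0712), and without vehicle replicates 1, 4, 5 and 6 or CL316243 replicates 1 and 5 for Dusp1 (up to 0.0943). Btg2 and Dusp1 each hold 1 copy of the full 8-letter form. Egr1 and Gadd45b rose without the core in their windows.

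**Figure D3:**
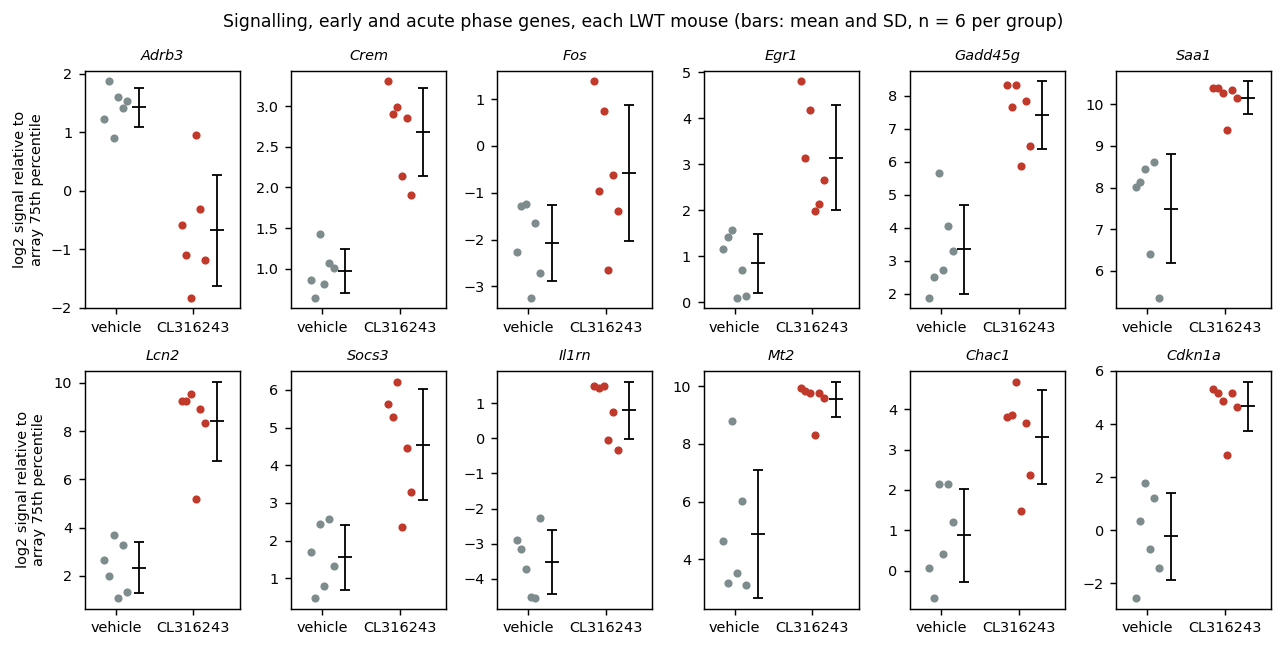
Log2 signal scaled to the 75th percentile of its own array of 12 signalling, early and acute phase genes in each LWT mouse, grey for vehicle and red for CL316243, with the mean and SD of the 6 mice of each group. Adrb3 falls by 2.10, the other genes rise, and the vehicle mice spread widely for Mt2, from 3.10 to 8.80.

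Acute phase proteins, which hepatocytes secrete in response to IL-6 and IL-1, rose in most members: 23 of 35 were called higher and 1 lower (median 0.70), with 4 lower in the authors' deposited log2 values. Saa1, serum amyloid A, lay at 5.36, 8.07 and 8.61 in vehicle mice and 9.39, 10.31 and 10.40 in treated mice (2.67 ± 0.50, adjusted p 2.19e-04). Lcn2, an iron-sequestering lipocalin, went from 1.08, 2.31 and 3.70 to 5.18, 9.09 and 9.52, a change of 6.07 ± 0.67 or 67.2-fold (adjusted p 3.68e-07, mm9 chr2:32240199-32240258). Il1rn, the IL-1 receptor antagonist, rose by 4.31 ± 0.61 from -4.54, -3.43 and -2.28 to -0.33, 1.09 and 1.48. No vehicle mouse reached any treated mouse for these 3 genes, and the treated mice themselves spread from 5.18 to 9.52 for Lcn2.

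The metallothioneins Mt2 (3.10, 4.08 and 8.80 to 8.30, 9.77 and 9.94, change 4.66 ± 0.72) and Mt1 (4.48, 5.83 and 8.86 to 9.39, 9.71 and 9.86, change 3.47 ± 0.60) rose, with 1 vehicle mouse, replicate 3, among the treated ones for Mt2. The fibrinogen chain Fga (1.43, adjusted p 7.84e-06), haptoglobin Hp (0.63, adjusted p 1.31e-05), the acid glycoprotein Orm2 (0.97, adjusted p 0.00136) and the iron hormone Hamp (0.77, adjusted p 0.00200) also rose. The member called lower was Serpina6, the corticosteroid carrier (-0.67, adjusted p 0.00228). The negative acute phase proteins Alb (0.15, adjusted p 0.0728) and Ttr (0.08, adjusted p 0.387) were not called, but Ttr was called lower in the authors' deposited log2 values (-0.14, adjusted p 0.0224) and Alb was called higher without CL316243 replicate 6 (adjusted p 0.0477). Probes of Saa, Orm and metallothionein genes may share signal with near-identical copies. Neutrophil markers, which also moved in part, are given above, and their part in these results was not tested.

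IL-6 and IL-1 signalling had 18 of 33 called higher and 5 lower (median 0.31). Socs3, the feedback inhibitor of IL-6 signalling, lay at 0.48, 1.51 and 2.58 and 2.37, 4.88 and 6.22 (2.99 ± 0.66, adjusted p 0.00106), with a small overlap. Stat3, its transcription factor, rose by 1.01 ± 0.21 (adjusted p 5.81e-04) and the receptor Il1r1 by 2.68 ± 0.45 (adjusted p 7.13e-05). Myd88, the adaptor of IL-1 and Toll-like receptors, went from 1.73, 1.89 and 2.005 to 2.86, 4.18 and 4.48 (2.01 ± 0.20, adjusted p 1.25e-07) without overlap. The liver acute phase factors Cebpb (0.86, adjusted p 0.0163) and Cebpd (1.38, adjusted p 0.0110) rose. The count of lower members was 3 without vehicle replicate 1, 4 or 5 or CL316243 replicate 2, 3 or 6.

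The letters TTCNNNGAA, read on both strands as a STAT element, were in 6 of 29 promoters of the acute phase list (20.7%), against 8.3% of all promoters. It was also in 4 of 23 promoters of the β-oxidation list (17.4%), 6 of 24 of the bile acid list (25%) and 1 of 28 of the immediate early list (3.57%). The stretches below show the element of Socs3 and of 2 acute phase genes, with the match in capitals.
Socs3 (GRCm38.p6, chr11:117969482-117969550, minus strand): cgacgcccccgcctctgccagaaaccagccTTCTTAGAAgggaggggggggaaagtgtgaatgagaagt
Fga (GRCm38.p6, chr3:83025903-83025957, plus strand): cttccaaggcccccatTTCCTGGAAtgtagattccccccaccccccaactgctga
Hamp (GRCm38.p6, chr7:30944088-30944156, minus strand): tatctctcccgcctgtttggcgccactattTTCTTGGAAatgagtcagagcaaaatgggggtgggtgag
All 3 genes rose, with the values given above. Of the 6 genes of the acute phase list with the element, 5 (Fga, Hamp, Apcs, Itih4 and Fgb) were called higher, and Hamp2 was not called. In the whole list 65.7% were called higher, and 19.1% of all genes. The 6 genes are named because they hold the element.

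Chemokine genes were called less often than all genes, of which 19.1% were called in each direction, and interferon genes about as often. Of 24 chemokines and receptors, 2 were called higher (8.33%) and 2 lower (8.33%, median 0.04). Ccl6 rose by 1.74 ± 0.34 (adjusted p 3.18e-04) and Cxcl12, which stromal cells make, fell by 0.84 on the log2 scale (adjusted p 0.00258). Ccl2 (0.08, adjusted p 0.875) and Cxcl10 (-0.67, adjusted p 0.187) were not called. Cxcl1, a neutrophil attractant, lay at 2.46, 2.86 and 4.83 and 1.59, 5.92 and 7.35 and was not called (1.68, adjusted p 0.0842), but was without CL316243 replicates 4 and 6 (adjusted p down to 0.00469). Without CL316243 replicate 4, 5 members were called higher. Of 49 interferon and antigen processing genes, 10 were called higher (20.4%) and 8 lower (16.3%, median 0.05), and Ifit1 (-0.28, adjusted p 0.486) was not called.

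Complement and coagulation genes were called about as often as all genes, of which 19.1% were called in each direction. Of 49 members, 9 were called higher (18.4%) and 11 lower (22.4%), with a median of -0.05 and a mean of 0.11. In the authors' deposited log2 values 5 were higher and 21 lower. Thbd, thrombomodulin, rose by 2.06 ± 0.46 (adjusted p 0.00118). The liver-made clotting factors F7 (-0.51, adjusted p 2.27e-04) and F11 (-0.42, adjusted p 0.00257), prekallikrein Klkb1 (-0.96, adjusted p 3.19e-06) and heparin cofactor Serpind1 (-0.89, adjusted p 1.44e-05) fell. C9 was not called (-0.20, adjusted p 0.0902), but was lower in the authors' deposited log2 values (-0.31, adjusted p 0.0124).

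Stress lists differed in direction. In the ATF4 list, which answers amino acid shortage and other stresses, 9 of 28 members were called higher and 1 lower (median 0.54), and 16 were called higher when the 12 LWT arrays were fitted alone. Chac1, a glutathione-degrading enzyme, lay at -0.68, 0.80 and 2.15 and 1.49, 3.74 and 4.68 (2.44 ± 0.60, adjusted p 0.00258), and Psat1 of serine synthesis at -2.40, -1.96 and 0.57 and -0.92, 1.19 and 2.02 (2.45 ± 0.64, adjusted p 0.00415), both with overlap. Gdf15, a circulating stress hormone, rose by 2.26 ± 0.34 (adjusted p 1.94e-05) without overlap. Atf4 (0.30, adjusted p 0.197), Asns (0.73, adjusted p 0.377), Trib3 (0.70, adjusted p 0.107), Ddit3 (0.45, adjusted p 0.137) and Ppp1r15a (0.41, adjusted p 0.0955) were not called in the fit over 24 arrays, and all except Asns were called higher in the fit over 12. Asns spread from 1.07 to 4.96 among the vehicle mice.

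Chaperones of the endoplasmic reticulum were more often lower, with 5 of 40 members called higher and 11 lower (median -0.15). Derl3, a degradation factor, lay at 0.49, 2.33 and 3.48 and -1.25, 0.27 and 1.60 (-1.97 ± 0.62, adjusted p 0.0153), and the sensor kinase Ern1 at 2.88, 3.22 and 3.40 and 1.21, 1.69 and 2.59 (-1.41 ± 0.25, adjusted p 1.21e-04). Sdf2l1 fell by 1.04 on the log2 scale (adjusted p 0.00965), while Hspa5, the chaperone BiP, was not called (-0.02, adjusted p 0.946) and Dnajb9 rose by 1.15 (adjusted p 3.17e-04). Xbp1 was not called (0.39, adjusted p 0.0910) but was without CL316243 replicate 4 (adjusted p 0.0338).

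The ATF4 composite element, read as TGATGNAAN on both strands, was in 6 of 27 promoters of the ATF4 list (22.2%; 3.95% of all promoters). The ERSE element, which ATF6 and XBP1 bind, was in 10 of 34 promoters of the endoplasmic reticulum list (29.4%; 0.119% of all promoters). Chac1 and Asns are given for the ATF4 composite, as 1 called and 1 uncalled gene, and Hspa5, Calr and Derl3 for ERSE, with matches in capitals and the stretches ending at or before the annotated start.
Chac1 (GRCm38.p6, chr2:119351018-119351086, plus strand): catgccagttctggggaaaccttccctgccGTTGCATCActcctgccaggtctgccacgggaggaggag
Asns (GRCm38.p6, chr6:7693210-7693262, minus strand): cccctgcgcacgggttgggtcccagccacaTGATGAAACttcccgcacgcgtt
Hspa5 (GRCm38.p6, chr2:34771995-34772073, plus strand): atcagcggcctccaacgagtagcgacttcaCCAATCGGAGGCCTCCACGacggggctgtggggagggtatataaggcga
Calr (GRCm38.p6, chr8:84847045-84847123, minus strand): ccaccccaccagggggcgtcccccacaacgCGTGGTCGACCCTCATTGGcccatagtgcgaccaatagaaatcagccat
Derl3 (GRCm38.p6, chr10:75893212-75893290, plus strand): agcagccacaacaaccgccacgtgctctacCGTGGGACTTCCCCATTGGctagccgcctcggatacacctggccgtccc
Of the 10 genes with ERSE, none was called higher and 3 were called lower, namely Derl3, the lectin chaperone Calr (-0.28, adjusted p 0.00529) and the disulfide isomerase Pdia6 (-0.35, adjusted p 0.0130). In the whole list 12.5% were called higher and 27.5% lower, and 19.1% of all genes in each direction. A tie between the element and the calls was not tested.

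Heat shock and cold-inducible proteins were called higher in 10 of 30 and lower in 7 (median 0.02). Hspa8 rose by 0.54 (adjusted p 0.00336) and Cirbp, which is induced by cooling, fell by 0.93 on the log2 scale (adjusted p 0.0109), while Hsp90aa1 was not called (0.12, adjusted p 0.652). The NRF2 antioxidant list had 6 of 32 members called higher (18.8%) and 3 lower (9.38%), against 19.1% of all genes in each direction. Its median was 0.03, with -0.06, 3 higher and 6 lower in the authors' deposited log2 values. Without CL316243 replicate 1 or 5, 3 members were called higher. Txnrd1 (0.64, adjusted p 2.51e-04) and Srxn1 (0.65, adjusted p 0.00518) rose, Osgin1 (-1.08, adjusted p 0.00399) and Gclm (-0.47, adjusted p 2.05e-04) fell, and Nqo1 (-0.06, adjusted p 0.716), Gclc (-0.27, adjusted p 0.345) and Hmox1 (0.84, adjusted p 0.0892) were not called. In iron and metal handling, 10 of 27 were called higher and 6 lower (median 0.13, and 0.17 or 0.18 without CL316243 replicate 4 or 6). The importer of zinc and iron Slc39a14 (1.19 ± 0.25) and the metalloreductase Steap4 (2.70 ± 0.44) rose, and ferroportin, Slc40a1, fell by 0.98 on the log2 scale (adjusted p 0.00946). Hamp, whose hormone leads to breakdown of the ferroportin protein, rose as given above. Protein was not measured, and a link to the Slc40a1 RNA level was not tested.

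Genes of detoxification and nitrogen metabolism were lower more often than higher within their lists. Of 44 cytochrome P450 genes of families 1 to 3, 8 were called lower (18.2%, with 19.1% of all genes called lower) and 1 higher (median -0.10), with 15 lower in the authors' deposited log2 values, 5 without CL316243 replicate 2 and 4 without CL316243 replicate 3. Cyp3a25 fell by 0.96 on the log2 scale (adjusted p 7.57e-05) without overlap, and Cyp1a2 (0.11, adjusted p 0.525), Cyp2e1 (0.07, adjusted p 0.499) and Cyp3a11 (-0.02, adjusted p 0.934) were not called, although Cyp2e1 was lower in the authors' deposited log2 values (-0.17, adjusted p 0.0220). Conjugation enzymes, which attach glucuronide, sulfate or glutathione, had 15 of 42 called lower and 1 higher (median -0.16). The glucuronosyltransferase Ugt1a6a changed by -1.73 ± 0.27 (adjusted p 2.55e-05), although exons shared within its locus may bring signal of other forms, and Sult1d1 by -0.78 (adjusted p 4.50e-04). Sult1a1 (0.08, adjusted p 0.745) and Gstm1 (0.02, adjusted p 0.927) were not called.

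Of 44 genes of the urea cycle and amino acid breakdown, 17 were called lower and 3 higher (median -0.24). Hal, the first enzyme of histidine breakdown, went from 5.59, 5.79 and 5.84 to 2.35, 3.55 and 4.38, a fall of 2.30 on the log2 scale (SE 0.25, adjusted p 3.70e-07) with separate groups. Glutaminase Gls2 fell by 0.63 (adjusted p 0.00152), and Aass, which starts lysine breakdown, rose by 1.42 ± 0.35 (adjusted p 0.00264). The urea cycle enzymes Ass1 (0.02, adjusted p 0.920) and Arg1 (0.25, adjusted p 0.211) were not called.

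The tryptophan to NAD pathway had 12 of 21 members called lower and 5 higher (median -0.38), with 3 higher without CL316243 replicate 1. Its 2 entry enzymes moved apart. Tdo2, the main hepatic dioxygenase, lay at 6.88, 6.99 and 7.51 and 7.63, 8.13 and 8.29 and rose by 0.96 ± 0.19 (adjusted p 4.67e-04). Ido2 lay at 4.47, 4.90 and 5.12 and 1.82, 2.67 and 3.48 and fell by 2.21 on the log2 scale (SE 0.23, adjusted p 1.21e-07). Neither gene's groups overlapped. Acmsd, which diverts the pathway from NAD (-0.87, adjusted p 0.00779), and Nampt, which salvages nicotinamide (-0.82, adjusted p 0.00183), fell, and Nnmt, which methylates nicotinamide, rose by 1.51 ± 0.34 (adjusted p 0.00137).

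Methionine and one-carbon metabolism had 5 of 30 members called higher (16.7%) and 9 lower (30%), against 19.1% of all genes in each direction. The list's median was -0.17, and -0.07 without CL316243 replicate 3, and 3 members were called higher without vehicle replicate 2. The methionine adenosyltransferases Mat2a (1.54 ± 0.12) and Mat1a (0.94 ± 0.22) rose, both without overlap. Mthfd1, the cytosolic trifunctional enzyme, changed by -1.05 on its brightest probe (adjusted p 7.48e-07) and by -0.55 over its probes, and Gnmt (-0.07, adjusted p 0.597) and Bhmt (-0.24, adjusted p 0.375) were not called.

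Of 28 pericentral genes, 3 were called higher (10.7%) and 4 lower (14.3%), both below the 19.1% of all genes called in each direction. Their median was 0.00 and their mean -0.13, with 7 lower in the authors' deposited log2 values. Of 24 periportal genes, 5 were called higher (20.8%, near the share of all genes) and 8 lower (33.3%, median -0.13). Among pericentral genes under Wnt control, Lgr5 (-0.92, -0.75 and -0.47 to -6.11, -4.01 and -0.99, change -2.95 ± 0.59) and Rnf43 (-1.50 ± 0.37, adjusted p 0.00282) fell, Glul rose by 0.40 (adjusted p 0.00211) and Axin2 was not called (0.46, adjusted p 0.151). Lgr5 was -1.32 at its smallest under the normexp background correction. On the periportal side, Cdh1, E-cadherin, fell by 1.34 on the log2 scale (adjusted p 8.33e-04), and Cyp17a1 (0.08, adjusted p 0.746) and Hsd17b6 (-0.37, adjusted p 0.564) were not called. Among nuclear receptors and coregulators, 8 of 37 were called higher and 13 lower (median -0.20), with 5 higher in the authors' deposited log2 values. The mineralocorticoid receptor Nr3c2 (0.93, 1.25 and 1.29 to -1.83, -1.26 and -0.14, change -2.23 ± 0.23), the estrogen receptor Esr1 (-1.12, adjusted p 1.36e-05) and Ppard (-0.63, adjusted p 9.23e-05) fell, the xenobiotic receptor Nr1i2 rose by 0.53 (adjusted p 0.00618), and Pparg (-0.35, adjusted p 0.131), Rxra (-0.09, adjusted p 0.342) and Nr1i3 (-0.04, adjusted p 0.899) were not called.

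Few subunits of the mitochondrial respiratory chain were called. Of 77 subunits of oxidative phosphorylation, 2 were called higher and 7 lower (median -0.02), and 26 were lower in the authors' deposited log2 values, in which the median of all genes was -0.02. The higher pair was cytochrome c, Cycs (0.62 ± 0.07, adjusted p 9.30e-07), and Ndufab1, the acyl carrier protein of complex I (0.50 ± 0.05, adjusted p 2.49e-07), each without overlap. Ndufs1 (0.02, adjusted p 0.872), Sdha (-0.02, adjusted p 0.757), Cox4i1 (0.11, adjusted p 0.221) and Atp5b (0.11, adjusted p 0.0877) were not called. The count of lower subunits was 3 or 4 without vehicle replicate 5 or 6 or CL316243 replicate 2 or 3.

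Of 24 genes of the tricarboxylic acid cycle, 8 were called higher and 2 lower (median 0.09), with 4 lower without CL316243 replicate 1 and 1 lower without vehicle replicate 2, 4 or 5 or CL316243 replicate 2 or 3. Fumarase, Fh1, rose by 1.15 ± 0.19 (adjusted p 5.73e-05) and citrate synthase, Cs, by 0.61 ± 0.13 (adjusted p 7.96e-04). Mitochondrial carriers and uncoupling proteins had 14 of 39 members called higher and 9 lower (median 0.16). Slc25a30 (-1.72, -1.35 and -0.14 to 1.61, 1.81 and 2.04, change 2.995 ± 0.20), Slc25a42, which imports CoA (4.34, 4.62 and 5.22 to 5.91, 6.51 and 6.78, change 1.82 ± 0.18), and the liver-enriched Slc25a47 (5.80, 6.56 and 7.31 to 8.37, 8.60 and 8.94, change 2.09 ± 0.20) rose without overlap. The uncoupling proteins Ucp2 (1.11, adjusted p 9.75e-05) and Ucp3 (1.15, adjusted p 1.94e-04) rose too. Among 19 aldehyde dehydrogenases, 4 were called higher (21.1%) and 5 lower (26.3%, median -0.05), against 8 lower in the authors' deposited log2 values. Among all genes, 19.1% were called in each direction. Aldh3a2, which clears fatty aldehydes, changed by 1.07 (adjusted p 2.71e-04) and the mitochondrial Aldh1b1 by -1.28 (adjusted p 3.48e-05).

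Growth and turnover genes gave a mixed account. Ribosome biogenesis had 22 of 48 members called higher and 4 lower (median 0.21), with Rrs1 (0.94 ± 0.21), Gnl2 (0.99 ± 0.22) and Nop58 (0.98 ± 0.27) among those called and Nop56 not called (-0.02, adjusted p 0.939). Cytosolic ribosomal proteins, in contrast, were called higher in 4 of 78 and lower in none, and this list's median of 0.04 was -0.05 in the authors' deposited log2 values, with 1 higher and 8 lower, while 11 were higher when the mean over probes was used. The count of higher ribosomal proteins was 2 without vehicle replicate 1, 2 or 4 or CL316243 replicate 1, 2 or 3. Of 37 proteasome subunits, 9 were called higher and 1 lower (median 0.09), and 4 were higher when arrays were scaled to their median. Psmd4 rose by 0.67 ± 0.05 (adjusted p 3.09e-09), and the lowest change in this list was -0.38. The immunoproteasome subunit Psmb9, counted in the interferon and antigen processing list instead, fell by 1.08 on the log2 scale (adjusted p 8.66e-05). Autophagy and lysosome genes were called in both directions alike, 13 of 51 higher (25.5%) and 13 lower (25.5%), against 19.1% of all genes each way. Atg9b changed by 3.63 ± 0.46 (adjusted p 2.26e-06) and Sqstm1 by 0.59 (adjusted p 8.71e-04). Tfeb (-0.17, adjusted p 0.159), Ulk1 (0.26, adjusted p 0.326) and Bnip3 (0.01, adjusted p 0.950) were not called.

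Cell cycle and growth arrest genes had 15 of 43 members called lower and 7 higher (median -0.37, mean -0.09). The inhibitor Cdkn1a, p21, lay at -2.56, -0.20 and 1.78 in vehicle mice and 2.82, 5.02 and 5.31 in treated mice, a change of 4.89 ± 0.68 or 29.7-fold (adjusted p 8.16e-06, mm9 chr17:29237377-29237436), without overlap, and its 2 kept probes gave 3.08 and 4.89. The replication gene Mcm5 fell by 1.56 on the log2 scale (adjusted p 5.49e-04), and E2f2 by 1.74 (adjusted p 9.22e-05), whereas Mki67 (-0.22, adjusted p 0.429), Ccnd1 (0.18, adjusted p 0.703) and Cdkn1b (-0.16, adjusted p 0.0694) were not called.

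Averaged over the members of a list, as the difference from the vehicle mean, the 6 treated mice spread unevenly. Treated replicate 3 was the lowest for β-oxidation genes (0.38, with 0.61 to 0.70 in the other 5) and for peroxisomal genes (0.28, with 0.48 to 0.57), and the highest for acute phase genes (1.70), where treated replicate 4 was the lowest (0.51). For immediate early genes, treated replicate 1 stood highest (1.78) and treated replicate 4 lowest (0.59). Among vehicle mice, replicate 3 had the highest values for immediate early (0.44), acute phase (0.34) and ATF4 genes (0.57), and its ATF4 value lay above those of treated replicates 4 (0.54) and 6 (0.43). Every treated mouse lay above every vehicle mouse for β-oxidation, peroxisomal, lipid droplet, immediate early and acute phase genes. The groups overlapped for cell cycle genes (-0.345 to 0.36 in vehicle mice and -0.35 to 0.09 in treated mice). They also overlapped for IL-6 and IL-1 genes, with treated replicate 4 at 0.04 and vehicle replicate 3 at 0.305. For bile acid genes every treated mouse lay below every vehicle mouse, with treated replicate 3 at the bottom (-0.56). Without treated replicate 3, β-oxidation had 19 members called higher and 1 lower (median 0.66), and without treated replicate 4, acute phase proteins had 23 called higher and 1 lower (median 0.78).

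**Figure D4:**
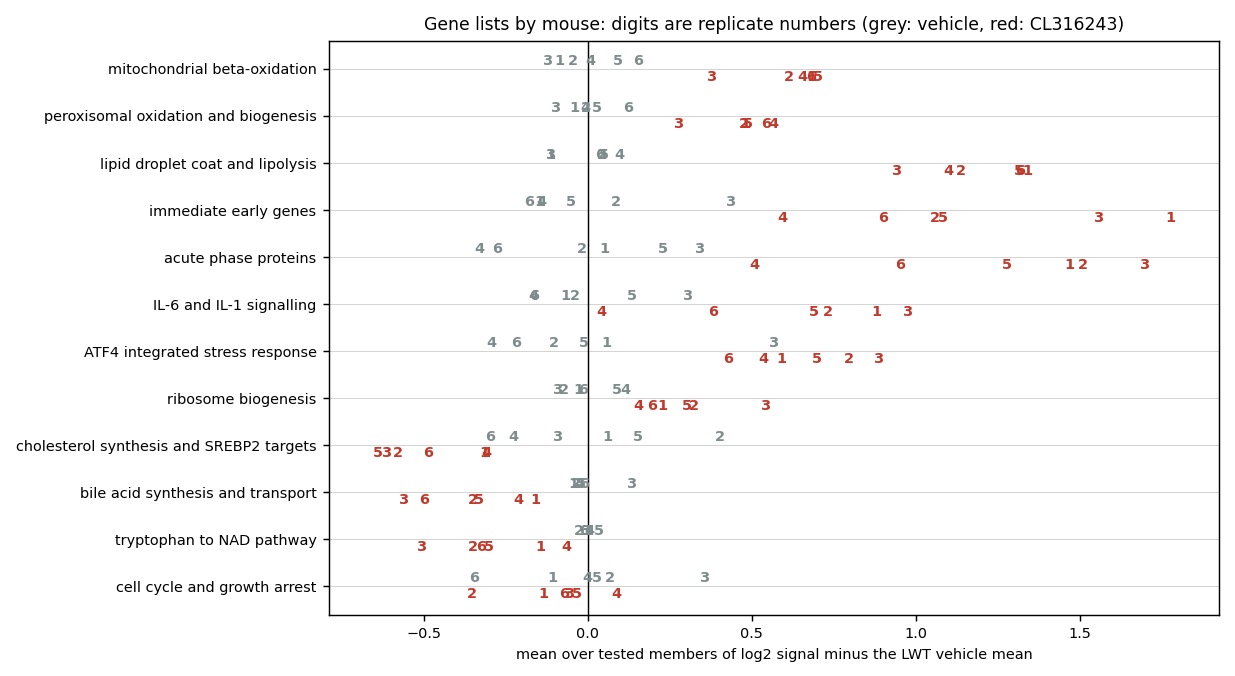
Mean over a list's tested members of log2 signal minus the LWT vehicle mean, for 12 lists, with 1 digit for each mouse (its replicate number), grey for vehicle and red for CL316243. Treated replicate 3 is the lowest treated mouse for β-oxidation and peroxisomal genes and the highest for acute phase genes, where treated replicate 4 is the lowest.

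The same comparison in LKO mice allowed the effects in the genotypes to be set against each other with a test of the difference (effect in LKO minus effect in LWT). That difference was called for 1151 genes (5.4%), of which 438 were higher (2.06%) and 713 lower (3.35%). With scaling to the array's median, 258 were higher and 696 lower. In the fatty acid lists the called differences were mostly lower: 17 of 26 β-oxidation genes, 19 of 42 peroxisomal genes, 8 of 14 thioesterases and 8 of 24 lipid droplet genes had a difference below 0, and none, none, 1 and 1 a difference above 0. In LKO mice the median of the β-oxidation list was -0.01, with 4 members called higher and 7 lower, where 40.2% of all genes were called in either direction. Ehhadh differed by -4.78 (adjusted p 2.76e-13), Acot1 by -4.31 (adjusted p 8.69e-07), G0s2 by -4.42 (adjusted p 9.51e-04) and Crat by -2.77 (adjusted p 0.00187). Cpt1a, the entry enzyme of liver, differed by -0.32 ± 0.21 and was not called (adjusted p 0.464), whereas Cpt1b was called (-2.43, adjusted p 6.04e-06).

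In the signalling lists the difference was called in 1 of 28 immediate early genes, 3 of 35 acute phase proteins and 2 of 33 IL-6 and IL-1 genes, all higher, where 2.06% of all genes were called higher. The LKO medians of these lists were 1.45, 0.92 and 0.57. Over all genes, 20.7% were called higher and 19.4% lower in LKO mice. In the ATF4 list 21 of 28 members were called higher in LKO mice and 9 in LWT mice, while the difference was called higher in none and lower in 1. Endoplasmic reticulum chaperones had 6 of 40 members with a higher difference and none lower, with medians of 0.20 in LKO and -0.15 in LWT. Interferon genes also had 6 of 49 higher and none lower. Cholesterol synthesis had 4 of 23 with a higher difference and none lower, among them Stard4 (1.04, adjusted p 0.00989) and Sqle (1.23, adjusted p 0.0177). Of the P450 genes, 5 were called higher and 24 lower in LKO mice against 1 and 8 in LWT, while the difference was called in 1 higher and 4 lower.

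**Figure D5:**
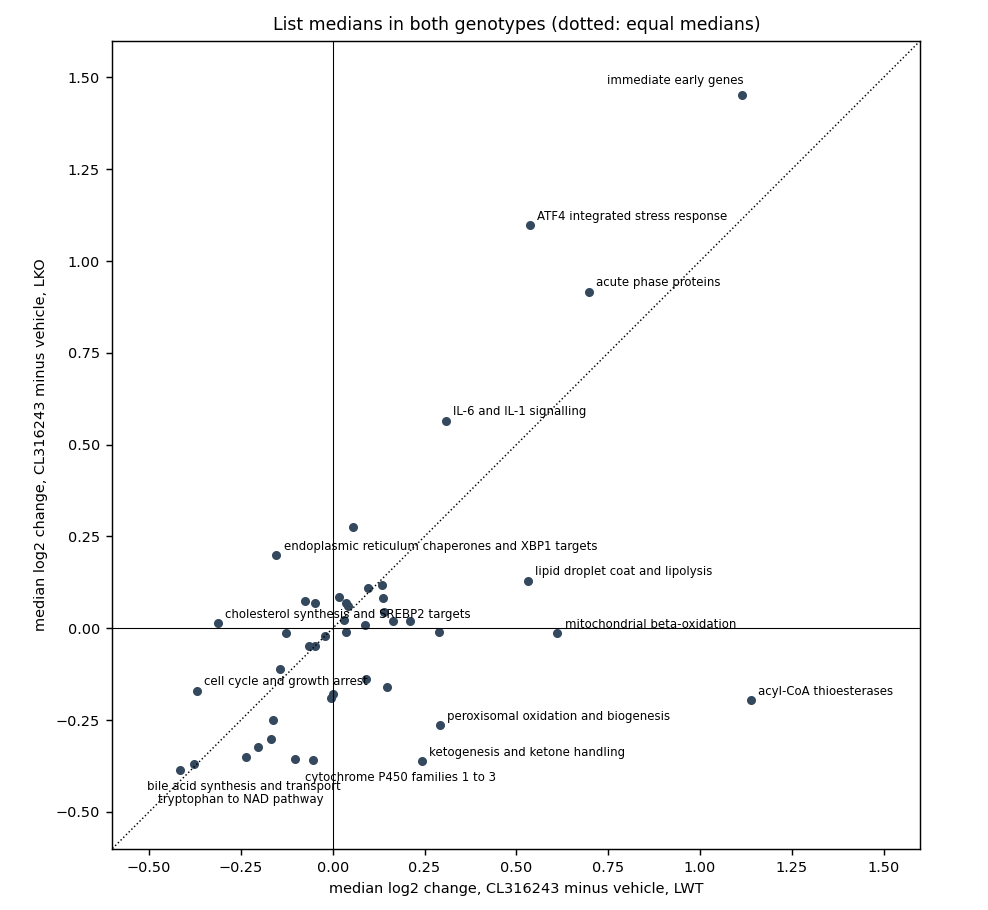
Median log2 change of each of the 45 pathway lists with CL316243 in LWT (horizontal axis) and LKO mice (vertical axis), 1 point per list, with the dotted line where both are equal. Immediate early, acute phase and ATF4 genes have medians above 0.5 in both genotypes, and thioesterases (1.14 and -0.20) and β-oxidation (0.61 and -0.01) lie far below the line.

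Among all genes well above background on all 12 arrays and with separate groups, the largest increases included genes outside the lists. Rab30, a Golgi GTPase, went from -1.80, -1.31 and -0.06 to 3.24, 3.77 and 4.75 (5.07 ± 0.32, adjusted p 1.11e-10, mm9 chr7:99985062-99985121), and Lamb3, a laminin chain of epithelial basement membranes, from -1.73, -1.18 and -0.60 to 2.27, 3.18 and 3.74 (4.26 ± 0.22), with probes from 1.83 to 4.28. The largest decreases included Nrep, a regulator of TGF-β signalling, from 3.32, 4.40 and 5.17 to -1.25, -1.07 and 0.62 (-5.05 ± 0.31, adjusted p 9.67e-11), the serpin gene Serpina9 (-4.23 ± 0.32), the kinase gene Dclk3 (-3.58 ± 0.51) and Keg1 (-3.50 ± 0.38). The difference between the genotypes was called for Rab30 (-2.67, adjusted p 5.78e-04) and Lamb3 (-3.93, adjusted p 2.78e-08), and not for these 4 decreases (adjusted p 0.147, 0.242, 0.849 and 0.466).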

How the data were processed

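RNA from 24 mouse livers was hybridised to 1-colour Agilent arrays, 1 mouse per array. The scanner tables that the authors deposited hold spot intensity from Agilent Feature Extraction 10.10.1.1, background-subtracted and detrended per the file headers. The authors also deposited a table of log2 values, whose near-equal column medians are those of quantile-normalized data, and limma is named per the submitters' processing notes. Which signal entered that table is not given in the sources used here.

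Processed signals were scaled to each array's 75th percentile on the log2 scale, control spots (leaving 59305 of 62976) and flagged outliers were left out, and spots of a probe were averaged. Probes marked well above background on 4 or more of the 6 arrays in any group, with 3 or more values in every group, were kept (32037 of 56605 probes), and the brightest kept probe stood for its gene. Of 21311 names, 14301 were matched to RefSeq by accession, 1517 by symbol and 92 by synonym, and 5401 kept the array's name. Groups were fitted with limma 3.58.1 in R 4.3.3 (lmFit and eBayes, 4 groups, no covariate), with Benjamini-Hochberg adjusted p-values, and the fit was tested on simulated data.

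The members and the 54 gene lists (45 pathways, 9 cell types) were chosen with earlier results of these data known, so they are not independent support for a direction, and 82 genes sit in more than 1 list. Genes named are key genes chosen for each list, up to 3 called members with the greatest change in each direction per list, and the 12 greatest changes in each direction over all genes among those above background on all 12 arrays with separate groups. From these, a selection is given. Nr4a1, Btg2, Dusp1, Calr, Pdia6, Apcs, Itih4, Fgb and Hamp2 lie outside that rule and were chosen after their values were seen. Alternatives covered background, scaling, the filter, the deposited table, the probe rule, the variance model, blocks and single mice left out. Array number limits the precision. Replicate numbers come from the titles, and no label says that a number is shared between mice of different groups. Of 24 arrays, 8 lie on each of 3 slides with 2 mice of each group per slide, and a fit with the slide as a block called 8036 genes. Ugt1a1 was not matched by name, and Cd79a and Adipoq did not pass the filter. Some members are not reported here.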

Additional observations from a re-analysis of the deposited data

Results flagged for a closer look

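Some mice stood apart from the other 5 of their group in the mean change of a list, taken as log2 signal minus the vehicle mean. Of 108 such tests over lists and groups, 10 exceeded Dixon's critical value, and chance alone exceeds it in about 1 group in 20. CL316243 replicate 3 was low for β-oxidation (0.38), peroxisomal genes (0.28) and ketone body genes (0.12). Vehicle replicate 3 was high for bile acid genes (0.14), iron handling (0.34) and periportal genes (0.34). Vehicle replicate 1 was low for apolipoproteins (-0.11) and P450 genes (-0.25). CL316243 replicate 1 was high for gluconeogenesis (0.39), and vehicle replicate 2 for stellate cell markers (0.51).

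For 46 of 251 genes named or plotted, the effect of CL316243 differed between the genotypes by the test of the difference (LKO minus LWT, log2). Camp and Ly6g are not counted there. Many of these genes were named for a large change in LWT mice, which enters the difference, so the count is not set against all genes. The difference was lower in 36. In fatty acid oxidation and transport these were Acot5 (-5.43), Acot2 (-5.25), Ehhadh (-4.78), Acot1 (-4.31), Crat (-2.77), Cpt1b (-2.43), Crot (-1.87), Acsl1 (-1.81), Pex11a (-1.599), Slc16a1 (-1.42), Slc25a20 (-1.100), Acot12 (-0.83), Acadm (-0.74) and Eci2 (-0.69). In lipid storage, lipid synthesis and pyruvate entry they were Pdk4 (-4.74), G0s2 (-4.42), Cidec (-3.28), Hilpda (-2.53), Apoa4 (-1.52), Gk (-1.49), Srebf1 (-1.25) and Plin5 (-1.17). The other lower differences were those of Lamb3 (-3.93), Rab30 (-2.67), Slc25a42 (-1.96), Ccnd1 (-1.57), Slc25a30 (-1.497), Aldh3a2 (-1.45), Ppara (-1.24), Tdo2 (-1.15), Cyp1a2 (-0.72), Nqo1 (-0.69), Ndufab1 (-0.64), Mat2a (-0.60), Psmd4 (-0.57) and Cycs (-0.42). Higher differences were found for Osgin1 (2.496), Ppargc1a (2.09), Gclc (1.37), Sqle (1.23), Nampt (1.20), Stard4 (1.04), Pparg (0.90), Foxo3 (0.70), Calr (0.55) and Cdkn1b (0.48). Among the latter, Ppargc1a, Nampt, Osgin1, Foxo3, Calr, Sqle and Stard4 were called lower in LWT mice.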

How the results depend on the processing

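The count of genes changed by CL316243 in LWT mice (8146) lay between 7033 and 8334 under other processing settings, the former with no filter on dim probes (36944 names tested), and between 7306 and 8533 with 1 mouse left out. It was 3797 when a 1.5-fold change was also required. The count of genotype differences (1151) was 677 with no filter, and otherwise between 806 and 1278, and between 929 and 1203 with 1 mouse left out. Higher genes were 44.2% of the calls after quantile normalization, 44.4% in the deposited log2 table and 50% here. With scaling to the array's median, 27% of the called genotype differences were higher, against 38.1% here. With the replicate number as a block the counts were 8279 and 1201. The correlations of same-numbered mice lay between -0.107 and 0.214, and only replicate 3 correlated best with its own number. These values show no general pairing by number, but cannot settle whether same-numbered mice were handled together. The block called Cxcl1 (adjusted p 0.0354), Hmox1 (0.0468) and Cdkn1b (0.0345), and not Nr0b2 (0.0552), and 4 chemokine genes higher.

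Of 188 called genes named or plotted (Camp and Ly6g not counted), 177 kept call and direction under 11 alternatives and 174 in all 12 fits without 1 mouse, and none reversed. The 11 that lost it in an alternative were Arntl, Atf3, Clock, Dusp1, Echs1, Fos, Nr0b2, Ppara, S100a8, S100a9 and Sqle. In the fit of 12 LWT arrays alone, Lpin2 (adjusted p 0.0438) and Pklr (0.0315) were also called. Averaging a gene's probes gave 1.72 for Acsl1, -0.63 for Acsm5, -0.90 for Ern1 and 0.56 for Srebf2, and called Igf1 (0.71) and Xbp1 (0.52). The normexp correction gave 2.79 for Il1rn, -1.03 for Ugt1a6a, -0.96 for Mcm5 and -1.04 for E2f2, all called. The deposited table gave 0.41 for Hp. Of 162 list medians and counts, 56 moved in an alternative and 33 with 1 mouse left out (a median by at least the SD between mice, a count by over 1.5 times), so smaller shifts of a median are not among them. The causes of these shifts were not tested.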
